A study of Mus musculus with 22 samples.

Results

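The Eph receptors and ephrins of the colon crypt were followed across 6 sorted cell types. The set is 10 genes, taken by name from the 24421 genes of the count files: the receptors Ephb2, Ephb3, Ephb4, Ephb6, Epha2 and Epha7 and the ligands Efnb1, Efnb2, Efna1 and Efna2. RNA was sequenced from colon crypt epithelium of wild-type male C57BL/6N mice aged 5 to 7 weeks, which was taken apart with EDTA and shaking, without enzymes, and sorted by FACS as live Epcam+ Cd31- Cd45- cells on their Cd44, Cd24 and Ckit staining. The 22 libraries are 3 of stem cells (Stem; Cd44 highest, Cd24 low, Ckit-), 3 of absorptive progenitors (AbsPro; Cd44 medium to high, Cd24 low, Ckit-), 4 of secretory progenitors and deep crypt secretory cells (SecPDG; Cd44 high, Cd24 and Ckit medium), 5 of tuft cells (Cd24 high, Ckit+), 5 of enterocytes (Cd44 low or absent, Cd24-) and 2 of enteroendocrine cells (EEC; Cd44 low or absent, Cd24+). The study's text gives Cd44 as medium in both AbsPro and SecPDG, and Ckit protein as detectable by FACS only in tuft cells. No animal carried a transgene or was treated. Replicates of a cell type came from separate mice and sorts, with several sorts joined in a library where cells were few, and whether libraries of different cell types share mice is not given in the sources used here. A Stem or AbsPro library is 1 mouse, and a library of any other cell type is a pool of mice.

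Eph receptors are receptor tyrosine kinases whose ligands, the ephrins, are fixed to the membrane of a neighbouring cell, so that the signal passes at cell contacts and can run into both cells. EphB receptors mainly bind the transmembrane B ephrins, and EphA receptors mainly bind the lipid-anchored A ephrins. In the intestinal crypt EphB2 and EphB3 are known as targets of Wnt signalling that are high at the crypt base, B ephrins are known to be higher toward the crypt mouth, and repulsion between cells carrying one or the other keeps the compartments of the crypt apart. Loss of EphB2 and EphB3 is known to mix these compartments.

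The promoters of the 3 EphB receptors that fell in enterocytes and EEC, and of the ephrin that rose, are shown because they belong to the genes on which the results turn. These are the 250 bases before the RefSeq start on GRCm38.p6, read 5′ to 3′ on the strand of the gene, with capitals for GC boxes (GGGCGG or CCGCCC) and TATA boxes (TATAAA or TTTATA). Ephb2 is chr4:136836013-136836262 on the minus strand, Ephb3 is chr16:21204545-21204794 on the plus strand, Ephb4 is chr5:137349859-137350108 on the plus strand and Efnb2 is chr8:8661243-8661492 on the minus strand.
Ephb2: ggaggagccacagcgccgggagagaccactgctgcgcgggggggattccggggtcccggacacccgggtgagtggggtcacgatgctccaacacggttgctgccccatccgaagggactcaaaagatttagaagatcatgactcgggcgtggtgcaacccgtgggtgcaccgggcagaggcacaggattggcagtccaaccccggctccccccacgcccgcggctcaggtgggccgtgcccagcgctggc
Ephb3: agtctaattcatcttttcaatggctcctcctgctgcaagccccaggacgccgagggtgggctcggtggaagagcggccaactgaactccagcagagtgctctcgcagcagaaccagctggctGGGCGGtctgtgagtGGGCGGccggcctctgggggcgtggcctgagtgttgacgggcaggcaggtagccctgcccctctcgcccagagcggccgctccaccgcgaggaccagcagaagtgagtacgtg
Ephb4: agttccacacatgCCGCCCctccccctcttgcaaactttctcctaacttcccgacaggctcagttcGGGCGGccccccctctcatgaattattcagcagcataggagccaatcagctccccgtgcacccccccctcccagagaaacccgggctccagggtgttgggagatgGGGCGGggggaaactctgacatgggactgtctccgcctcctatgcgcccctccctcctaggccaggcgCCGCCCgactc
Efnb2: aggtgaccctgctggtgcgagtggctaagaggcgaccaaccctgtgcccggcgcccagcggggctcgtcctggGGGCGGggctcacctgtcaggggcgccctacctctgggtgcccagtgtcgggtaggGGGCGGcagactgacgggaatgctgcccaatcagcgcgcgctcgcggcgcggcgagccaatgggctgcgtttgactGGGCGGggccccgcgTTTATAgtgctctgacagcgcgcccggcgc
The GC box stood 0 times before Ephb2, 2 times before Ephb3, 4 times before Ephb4 and 3 times before Efnb2. The TATA box stood only before Efnb2 among these 4 genes, 30 bases before the start. The core of the site bound by TCF and LEF factors (CTTTG or CAAAG) was not among the letters of these 4 windows. A promoter was given for 10 of the 10 genes, 2 each for Epha7 and Efna1, and over both strands 8 of the 10 genes held a GC box, 3 the TCF and LEF core and 1 the TATA box. Of all 32851 promoters of this length, 32.7% held a GC box, 48.6% the TCF and LEF core and 12.4% the TATA box. A match of letters is a description and not a site.

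Counts on genes were lowest in EEC, with 4122122 in replicate 1 and 13132315 in replicate 2, and in enterocytes, with 5950619 to 12966128 in a library. Tuft libraries held 9930648 to 20892532, and those of Stem and the progenitors held at least 15314543 and at most 22462518. Reads outside genes made up 45.6% to 48.9% of the reads in Stem, 67.2% to 83.3% in enterocytes and 64.9% and 89.9% in EEC. A background level was read from 1510 olfactory, vomeronasal, trace amine and hair keratin-associated genes, taken as ones the gut epithelium does not use. Whether a cell type such as EEC uses single genes among them was not tested. The background averaged 0.211 normalized counts per kb of exon for Stem, 0.248 for AbsPro and 0.313 for SecPDG. For tuft cells it averaged 2.47, for enterocytes 4.86 and for EEC 6.12, with 10.3 in EEC replicate 1. Stem, tuft cells and EEC were each highest in the summed markers of their own type. The summed secretory and goblet markers had their highest mean in SecPDG through replicate 2 (3105257 normalized counts), and the other 3 SecPDG libraries, at 678811 to 1171298, overlapped tuft cells, at 692391 to 1119540. The summed enterocyte markers stood at 49302 to 71594 normalized counts in enterocytes, 65573 to 100935 in AbsPro and 22123 and 138832 in EEC. The summed endothelial markers (6 genes, none at 0 in every library of any cell type) ran over 78.5 to 176 normalized counts for Stem, 45.5 to 199 for AbsPro and 123 to 319 for SecPDG. They were higher in the rest, at 345 to 991 for tuft cells, 581 to 1461 for enterocytes and 1426 and 2440 for EEC. In a sorted pool, fewer cells of one type and less RNA per cell cannot be told apart. The form of the SecPDG and tuft file names differs from the others, and what that stands for cannot be told apart from the cell type.

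All changes below are from edgeR's quasi-likelihood test in 1 fit of the 22 libraries, and a call needed an adjusted p (Benjamini-Hochberg, over the 22781 genes tested) of less than 0.01 together with an average level of 50 or more normalized counts. Of the 10 genes, 10 passed the filter on low counts and 9 had that mean. Efna2, at a mean of 23.0, could not be called. Across the 6 cell types 9 of the 10 genes were called, where 58.3% of the 13381 genes with that mean were called. Against Stem, AbsPro had 1 call among the 10, higher, where 1.00% of all genes with that mean were called (0.844% higher and 0.157% lower). SecPDG had 0 calls, where 8.49% of genes were called (5.78% higher and 2.71% lower). Tuft cells had 1 call, higher, beside 20.9% of genes (13.7% higher and 7.21% lower). Enterocytes had 6 calls, 3 higher and 3 lower, beside 38.7% of genes (19.2% higher and 19.5% lower), and EEC had 3 calls, all lower, beside 34.7% of genes (19.2% higher and 15.5% lower). The count of 0 in SecPDG stood beside 2 of the 10 genes that could be called and had an unadjusted p under 0.05, Epha2 and Efnb2, and beside 1 call by DESeq2, Efnb2. The 5 comparisons share their 3 Stem libraries. The median gene moved by -0.28 (log2) in enterocytes and by -0.29 in EEC against Stem under the TMM scaling used, and by 0.31 and 0.45 under that of DESeq2, so the called changes in these cell types are also given less the change of the median gene.

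**Figure D1:**
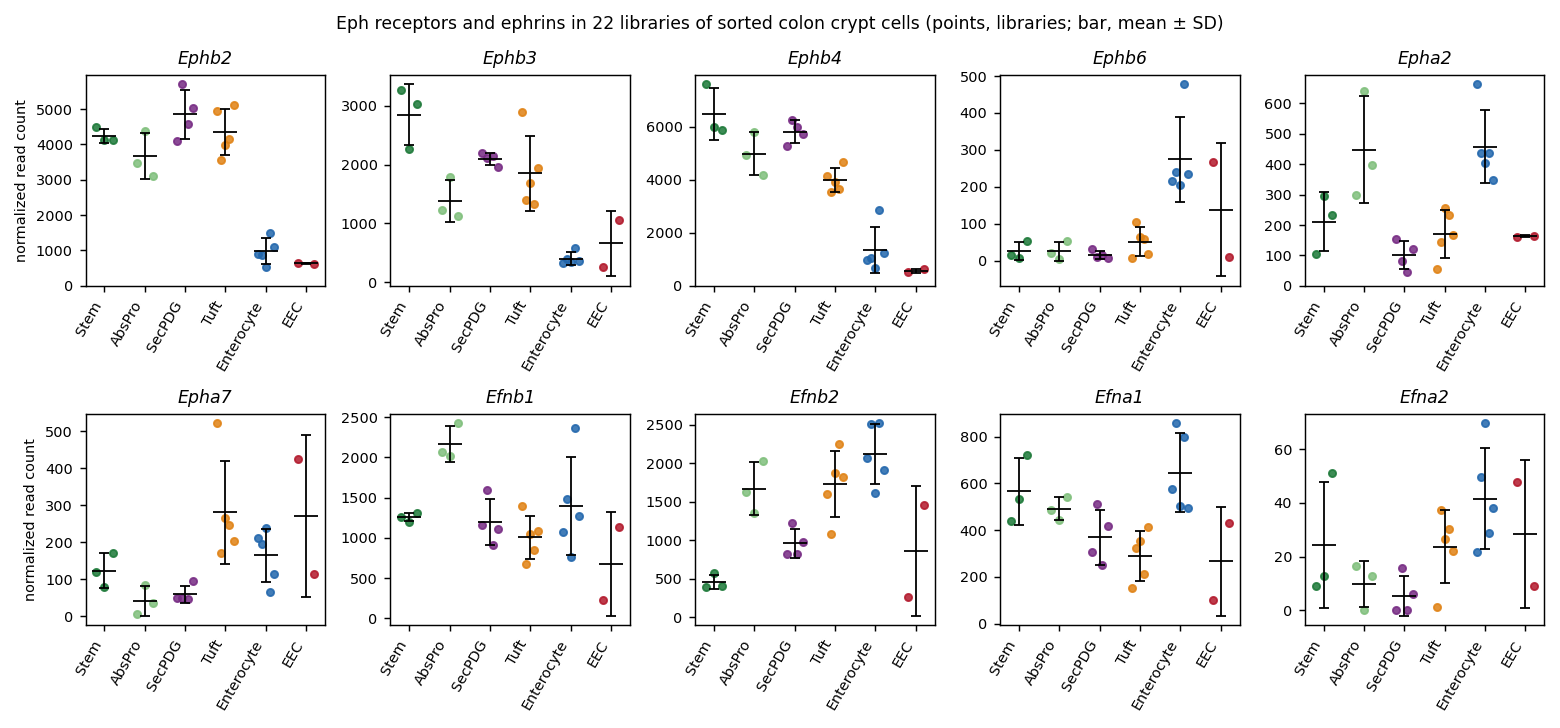
Normalized read counts of the 10 Eph receptors and ephrins (y axes, linear, 1 scale a panel) in the 22 libraries, by sorted cell type (x axes). Points are libraries and bars are the mean ± SD. Ephb2, Ephb3 and Ephb4 sit low in enterocytes and EEC, with Ephb4 at 678 to 2861 in enterocytes and at 5873 to 7612 in Stem, while Efnb2 is at 398 to 570 in Stem and at 1615 to 2515 in enterocytes.

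The EphB receptors Ephb2, Ephb3 and Ephb4 were high in Stem and in the progenitors and fell in both enterocytes and EEC. Ephb2 (chromosome 4, 136647539 to 136835988) is the receptor by whose surface level crypt cells are often ranked from base to top. It stood at 4480, 4111 and 4135 normalized counts in Stem, 3478, 4384 and 3118 in AbsPro, 4086, 5716, 4570 and 5031 in SecPDG and 4931, 3571, 3980, 4141 and 5112 in tuft cells. These 4 groups overlapped, and none of the neighbours in their order differed beyond the spread. In enterocytes Ephb2 stood at 890, 862, 526, 1508 and 1103, and in EEC at 646 and 627, all under the lowest library of the other 4 cell types. Against Stem it fell by 2.12 ± 0.31 (log2 ± SE, adjusted p = 2.78e-07) in enterocytes and by 2.74 ± 0.45 (adjusted p = 2.48e-06) in EEC, or by 1.83 and 2.45 less the median gene. Against Stem Ephb2 changed by 0.19 ± 0.31 in SecPDG (adjusted p = 0.856) and by 0.04 ± 0.30 in tuft cells (adjusted p = 0.931), both without a call.

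Ephb3 (chromosome 16, 21204755 to 21223305) is the close partner of Ephb2 in the crypt and was highest in Stem by its mean. It stood at 3263, 2270 and 3025 normalized counts in Stem, 2193, 2113, 2143 and 1955 in SecPDG, 2899, 1396, 1692, 1331 and 1944 in tuft cells and 1230, 1793 and 1118 in AbsPro. In enterocytes it stood at 321, 390, 342, 589 and 363, and in EEC at 264 and 1054. Every library of AbsPro, SecPDG, enterocytes and EEC lay under the lowest Stem library, and tuft cells overlapped Stem through 1 library, tuft replicate 1. Ephb3 fell by 2.82 ± 0.32 (adjusted p = 1.04e-09) in enterocytes and by 2.05 ± 0.43 (adjusted p = 0.00012) in EEC against Stem (-2.54 and -1.76 less the median gene). In AbsPro the value against Stem was -1.05 ± 0.34, with an adjusted p of 0.138 that missed the threshold. That comparison was called with the 2 cell types alone (adjusted p = 0.00683) and without the 4 libraries of highest background (adjusted p = 0.007). Without EEC replicate 1, the EEC value was -1.60 (adjusted p = 0.00328), and without EEC replicate 2 it was -3.44 (adjusted p = 3.36e-06).

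Ephb4 (chromosome 5, 137350109 to 137378669), a receptor best known from veins, had the highest level per kb of exon of the 10 genes in Stem, at 1399 ± 210 normalized counts per kb (SD, n = 3). Its exons overlap those of Zan in GENCODE vM21, which is not the annotation the reads were counted on, and whether reads were lost to this was not tested. It stood at 7612, 5985 and 5873 normalized counts in Stem, 5257, 6272, 5980 and 5720 in SecPDG, 4934, 5808 and 4192 in AbsPro and 4154, 3522, 3925, 3663 and 4677 in tuft cells. It then stood at 978, 1037, 678, 2861 and 1250 in enterocytes and at 520 and 624 in EEC, the lowest levels of the 6 cell types. Ephb4 fell by 2.25 ± 0.33 (adjusted p = 3.19e-07) in enterocytes and by 3.49 ± 0.51 (adjusted p = 1.80e-07) in EEC against Stem (-1.96 and -3.21 less the median gene). Of the 6 endothelial markers, 5 were called higher in enterocytes and in EEC than in Stem, where 19.2% of all genes were called higher in each. Background made up 20.3% of the summed endothelial markers in enterocytes, 14.5% in EEC and 7.08% in Stem. The part of endothelial cells in the Ephb4 levels was not tested. In tuft cells the Ephb4 change against Stem was -0.70 ± 0.32 (adjusted p = 0.080), without a call. Ephb2, Ephb3 and Ephb4 were also lower in enterocytes than in AbsPro, SecPDG and tuft cells, with calls in all 9 of these comparisons. The changes were between -1.55 for Ephb4 against tuft cells and -2.38 for Ephb3 against SecPDG. Of all genes, 28.4%, 40.6% and 14.4% were called in either direction in these 3 pairs of cell types. The 9 comparisons use the same enterocyte libraries as those against Stem and are not separate from them. Background made up 6.26% of the Ephb2 level, 8.04% of the Ephb3 level and 1.66% of the Ephb4 level in enterocytes, and with it taken off the changes were -2.13, -2.83 and -2.22. Without the 4 libraries of highest background (enterocyte replicates 1, 2 and 3 and EEC replicate 1) the enterocyte values were -1.59, -2.46 and -1.55 and all 3 stayed called (adjusted p = 4.42e-06, 1.18e-07 and 1.54e-05).

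Ephb6 (chromosome 6, 41605482 to 41620509), an EphB receptor whose kinase domain is known to be inactive, ran the other way. It stood at 215, 240, 204, 478 and 236 normalized counts in enterocytes. In Stem it stood at 16.2, 8.12 and 53.4, in AbsPro at 20.2, 3.44 and 54.5, in SecPDG at 32.0, 10.5, 14.2 and 8.28 and in tuft cells at 7.74, 105, 65.5, 59.5 and 17.7. No library of these 4 cell types reached the lowest enterocyte library. Ephb6 rose by 3.41 ± 0.60 (adjusted p = 7.72e-06) in enterocytes against Stem (3.69 less the median gene), by 3.48 ± 0.63 against AbsPro (adjusted p = 3.74e-05), by 4.05 ± 0.64 against SecPDG (adjusted p = 1.17e-06) and by 2.51 ± 0.50 against tuft cells (adjusted p = 0.000115). Enterocyte replicate 4, the library with the lowest background of the 5, held the highest value, and background made up 1.76% of it. The call against Stem held without the 4 libraries of highest background, at 3.90 (adjusted p = 4.75e-06), and missed the threshold under the earlier quasi-likelihood method of edgeR (adjusted p = 0.0124), as did those against AbsPro and tuft cells. In EEC the 2 libraries disagreed: replicate 1 held 266 normalized counts and replicate 2 held 10.3, which is 8 reads. The EEC value of 2.19 ± 0.88 against Stem (adjusted p = 0.0354) was not called, became 3.35 (adjusted p = 0.000663) without EEC replicate 2 and -1.49 (adjusted p = 0.662) without EEC replicate 1.

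**Figure D2:**
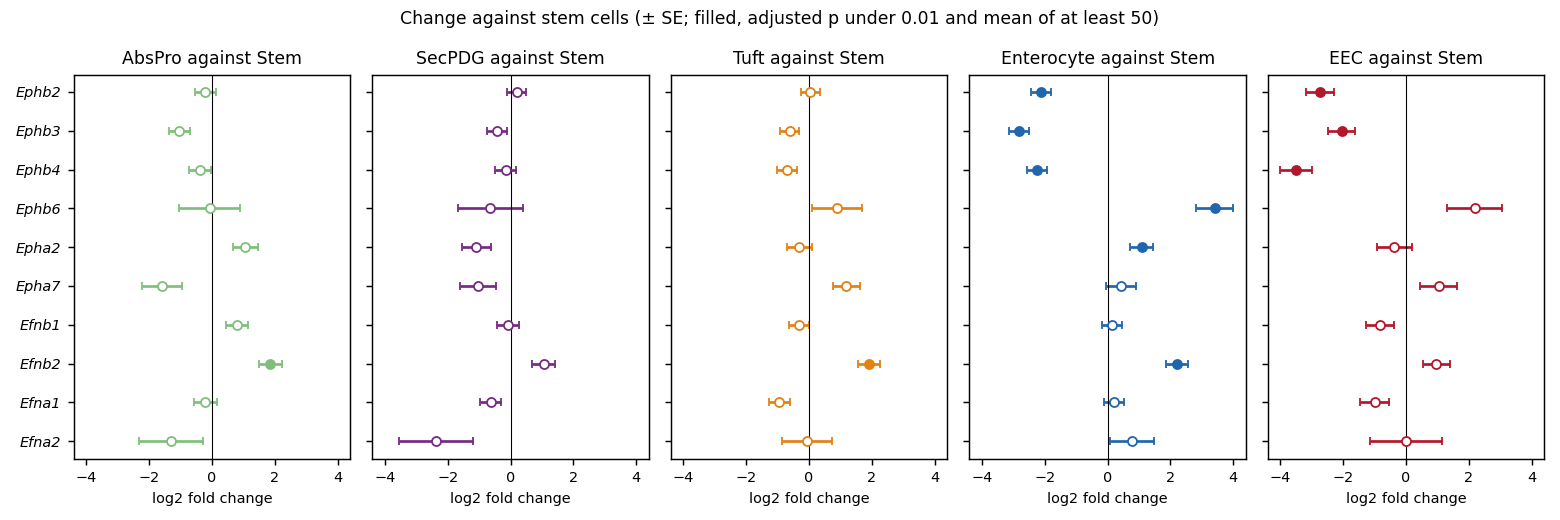
Log2 fold change of the 10 genes (rows) in the 5 other cell types against Stem (x axes, log2 units), with the standard error as bars. Filled points were called. Efnb2 is filled in AbsPro at 1.85, in tuft cells at 1.90 and in enterocytes at 2.20, and Ephb2, Ephb3 and Ephb4 are filled on the left in enterocytes and EEC.

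The EphA receptors had other orders of cell types. Epha2 (chromosome 4, 141301240 to 141329384), a receptor found on many epithelia, ranged from 347 to 664 normalized counts in enterocytes and from 299 to 641 in AbsPro. It ranged from 105 to 295 in Stem, 56.8 to 255 in tuft cells and 46.3 to 155 in SecPDG, and stood at 162 and 165 in EEC. AbsPro and enterocytes lay above every Stem library. Epha2 was 4.42-fold lower in SecPDG than in AbsPro (-2.15 ± 0.42, adjusted p = 0.00022) and 2.60-fold lower in tuft cells than in AbsPro (-1.38 ± 0.37, adjusted p = 0.00634). The tuft call was lost under 9 of 35 single changes of the settings, among them DESeq2, the 3 other scalings and leaving out AbsPro replicate 2 (-1.02, adjusted p = 0.105), tuft replicate 1 (-1.17, adjusted p = 0.0214) or tuft replicate 2 (-1.33, adjusted p = 0.0177), and the SecPDG call was lost without AbsPro replicate 2 (adjusted p = 0.0107). Epha2 was higher in enterocytes than in SecPDG by 2.18 ± 0.40 (adjusted p = 1.61e-05) and than in tuft cells by 1.41 ± 0.35 (adjusted p = 0.00228), the latter lost under 4 settings, among them without tuft replicate 1 (adjusted p = 0.0135) or enterocyte replicate 1 (adjusted p = 0.027). Against Stem it rose in enterocytes by 1.09 ± 0.37 (1.38 less the median gene) with an adjusted p of 0.00959, just inside the threshold. This call was lost under 19 of the settings, among them leaving out Stem replicate 1 (0.79, adjusted p = 0.083), enterocyte replicate 1 (0.75, adjusted p = 0.0779) or Stem replicate 3 (0.97, adjusted p = 0.0508). In AbsPro the value against Stem was 1.06 ± 0.39 (adjusted p = 0.237), without a call.

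Epha7 (chromosome 4, 28813131 to 28967499), a receptor best known from the developing nervous system, stood at 521, 171, 264, 247 and 202 normalized counts in tuft cells, at 426 and 115 in EEC and, lowest by its mean, in AbsPro at 4.48, 85.1 and 36.7. Tuft cells and EEC overlapped, and EEC against tuft cells was -0.14 ± 0.52 (adjusted p = 0.868), or 0.07 to 0.74 under DESeq2 and the 3 other scalings, so that neither was set above the other. Epha7 stood at 49.0, 49.9, 45.4 and 94.2 in SecPDG, so that no tuft library overlapped AbsPro or SecPDG. Tuft cells were higher by 2.77 ± 0.55 than AbsPro (adjusted p = 0.000196) and by 2.22 ± 0.49 than SecPDG (adjusted p = 0.0016). The first call was lost under 2 of 35 settings, one of them without AbsPro replicate 1 (adjusted p = 0.0185), and the second under 5, with 1.89 (adjusted p = 0.0116) without tuft replicate 1 and an adjusted p of 0.0114, 0.0174 and 0.0153 without SecPDG replicates 1, 2 and 3. Against Stem (78.5 to 171) the tuft value was 1.18 ± 0.44 (adjusted p = 0.0332), without a call. Epha7 was also called higher in enterocytes (66.3 to 238) than in AbsPro, by 2.01 ± 0.60 (adjusted p = 0.00593), and in EEC than in AbsPro and SecPDG, by 2.63 ± 0.70 and 2.08 ± 0.63 (adjusted p = 0.00206 and 0.00607). These 3 calls were lost without the 4 libraries of highest background (adjusted p = 0.275, 0.254 and 0.447), and background made up 29.2% of the Epha7 level in enterocytes and 22.3% in EEC, beside 8.68% in tuft cells. Without EEC replicate 1, which held 426, the EEC values against AbsPro and SecPDG had an adjusted p of 0.353 and 0.648. Summed immune markers stood at 1441 to 3613 normalized counts in tuft cells, 1962 and 586 in EEC, 376 to 927 in enterocytes and 154 to 169 in Stem. Which cells these marker reads came from, and the part of those cells in the tuft value of Epha7, was not tested.

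Of the B ephrins, Efnb2 rose in AbsPro, tuft cells and enterocytes, and it was the gene of the set called between Stem and AbsPro. Efnb2 (chromosome 8, 8617434 to 8661242), a transmembrane ligand of EphB2, EphB3 and EphB4, stood at 398, 570 and 414 normalized counts in Stem. It stood at 1621, 1350 and 2031 in AbsPro, at 1599, 1084, 1878, 2250 and 1824 in tuft cells and at 2069, 2510, 1615, 2515 and 1906 in enterocytes. All libraries of these 3 cell types were above the highest Stem library. Efnb2 rose against Stem by 1.85 ± 0.37 (adjusted p = 0.00187) in AbsPro, by 1.90 ± 0.35 (adjusted p = 3.54e-05) in tuft cells and by 2.20 ± 0.35 (adjusted p = 1.72e-06) in enterocytes, or 3.60-fold, 3.74-fold and 4.60-fold. Less the median gene, the enterocyte value was 2.48. AbsPro is the comparison with the fewest calls, 0.844% of genes being called higher. The AbsPro call was lost without Stem replicate 1 (1.76, adjusted p = 0.0347) and without Stem replicate 3 (1.76, adjusted p = 0.0115), at nearly the same size. The tuft and enterocyte calls held in all 35 changes of the settings. Other summed markers moved between Stem and AbsPro as well, the secretory and goblet markers from 17912 to 31178 in Stem to 80823 to 239433 normalized counts in AbsPro, the enteroendocrine markers from 157 to 528 to 3429 to 15379 and the enterocyte markers from 11807 to 23573 to 65573 to 100935, while the endothelial markers overlapped. The summed stromal markers stood at 64.8 to 213 in Stem and at 62.7, 36.1 and 1310 in AbsPro. The 1310 was in AbsPro replicate 3, which also held the highest Efnb2 of the AbsPro libraries. They stood at 126 to 650 in tuft cells and 471 to 1351 in enterocytes, of which background made up 28.2% and 24.5%. The part of cells with any of these markers in the higher Efnb2 of AbsPro, tuft cells and enterocytes was not tested.

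In SecPDG Efnb2 stood at 828, 1222, 820 and 975, above every Stem library and below every AbsPro library. The value against Stem was 1.05 ± 0.36 (adjusted p = 0.0573) and was not called, but it was called under 5 other settings, with the 2 cell types alone at 1.10 (adjusted p = 0.000397). In EEC the 2 libraries lay far apart, at 271 and 1460, on either side of Stem. Efnb2 there was 0.96 ± 0.43 against Stem (adjusted p = 0.0561), 1.49 (adjusted p = 0.000679) without EEC replicate 1 and -0.77 (adjusted p = 0.267) without EEC replicate 2. Enterocytes were above SecPDG by 1.15 ± 0.30 (adjusted p = 0.00148).

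Efnb1 (chromosome X, 99136130 to 99148991), the other B ephrin of the set, was present in every cell type and was highest in AbsPro by its mean. It stood at 2072, 2012 and 2422 normalized counts in AbsPro and at 1262, 1203 and 1306 in Stem, and these libraries did not overlap. The difference of 0.79 ± 0.35 had an adjusted p of 0.449 in the fit of all libraries and 0.00959 with the 2 cell types alone. Ranges were 916 to 1595 in SecPDG, 680 to 1390 in tuft cells and 758 to 2367 in enterocytes, and EEC stood at 224 and 1133. The call on Efnb1 was in EEC against AbsPro, at -1.61 ± 0.44 (adjusted p = 0.00285), and it was lost without EEC replicate 1 (adjusted p = 0.0345). Against tuft cells the AbsPro level was higher by 1.10 with an adjusted p of 0.0107, just outside the threshold. So the rise from Stem that was called in AbsPro, tuft cells and enterocytes for Efnb2 was not called for Efnb1 in any of them, where the difference between the genes was not tested.

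Of the A ephrins, Efna1 was called in 1 comparison and Efna2 was too low to be called. Efna1 (chromosome 3, 89271733 to 89281142), the usual ligand of EphA2, ranged from 496 to 856 normalized counts in enterocytes, 441 to 723 in Stem and 444 to 542 in AbsPro. It was between 249 and 511 for SecPDG and between 151 and 413 for tuft cells, with 103 and 430 in EEC. Its call was in enterocytes against tuft cells, at 1.14 ± 0.31 (adjusted p = 0.00609), where no library overlapped, and it was lost under 7 of the 35 changes of the settings, with an adjusted p of 0.0342 without enterocyte replicate 2. Against Stem the tuft value was -0.94 ± 0.33 (adjusted p = 0.026) and the EEC value -0.99 ± 0.46 (adjusted p = 0.0672). Efna2 (chromosome 10, 80179482 to 80190010) was near the floor of the assay. Its group means ran from 5.49 normalized counts in SecPDG to 41.6 in enterocytes, and it had no read in 1 AbsPro and 2 SecPDG libraries. Background made up 24.9% of its level in enterocytes and 46.0% in EEC.

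The relation of EphB receptors to B ephrins can be read within a library, where it does not depend on the scaling between libraries. The summed level of the 4 EphB receptors per kb of exon was 5.04 ± 0.73 (SD, n = 3) times that of Efnb1 and Efnb2 in Stem, with 5.88, 4.54 and 4.70 in the libraries. It was 4.14 ± 0.76 (n = 4) times in SecPDG, 2.81 ± 0.51 (n = 5) in tuft cells and 1.86 ± 0.53 (n = 3) in AbsPro. In enterocytes it was 0.686 ± 0.143 (n = 5), with 0.632, 0.520, 0.644, 0.904 and 0.732. In all 5 enterocyte libraries the B ephrins were thus above the EphB receptors per kb, and in all 15 libraries of the other cell types apart from EEC the receptors were above the ephrins. Which sum is higher depends on the exon lengths used, which are not from the annotation the reads were counted on. Without division by length, enterocyte replicate 4 held 1508, 589, 2861 and 478 normalized counts of the receptors. Its Efnb1 and Efnb2 held 2367 and 2515, so that the order there was the other way. In the EEC libraries the ratio per kb was 2.62 and 0.639. AbsPro and SecPDG did not overlap, at 1.34 to 2.40 and 3.32 to 5.14. The receptor sum was 2171 ± 282 per kb in Stem and 1578 ± 271 in AbsPro, and the ephrin sum was 432 ± 7.51 and 872 ± 113. Unlike the ratio, these sums depend on the scaling between libraries, and their differences were not tested. Of the genes in them, only Efnb2 was called between Stem and AbsPro. The level per kb of Efnb2 was 0.186 ± 0.046 of that of Efnb1 in Stem, 0.385 ± 0.043 in AbsPro and 0.409 ± 0.044 in SecPDG. The same ratio was 0.893 ± 0.274 for tuft cells, 0.836 ± 0.207 for enterocytes and 0.630 ± 0.027 for EEC (n = 2). These ratios are sums over chosen genes and are given as a description.

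**Figure D3:**
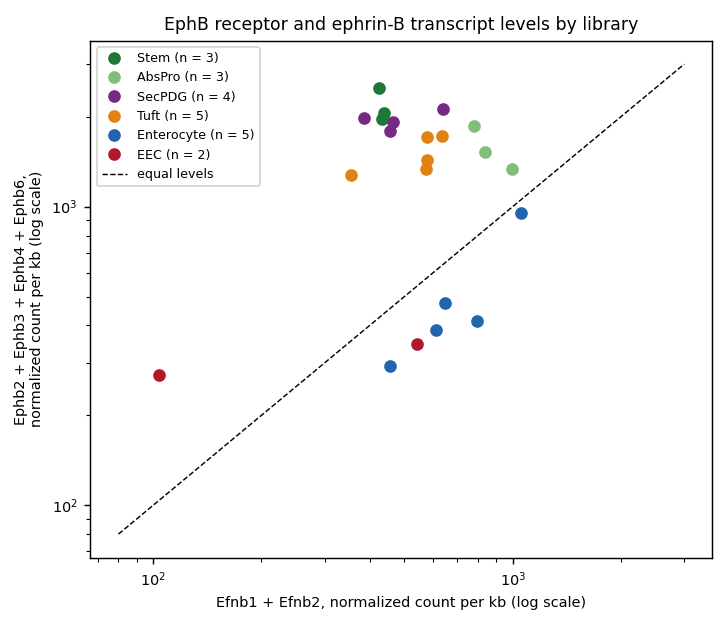
Summed level of the EphB receptors Ephb2, Ephb3, Ephb4 and Ephb6 (y axis) against that of Efnb1 and Efnb2 (x axis), in normalized counts per kb of exon on log scales, 1 point a library. The dashed line marks equal levels. The 5 enterocyte libraries and EEC replicate 2 lie under the line, and the 3 AbsPro libraries lie between them and Stem.

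Read against the rest of the family, a few of these genes carried most of its transcript level in Stem and the progenitors. Ephb2, Ephb3 and Ephb4 made up 88.6% ± 3.0 of the summed level per kb of the 14 Eph receptors in Stem and 92.2% ± 1.3 in SecPDG, and 48.8% ± 10.2 in enterocytes. Efnb1, Efnb2 and Efna1 made up 69.2% ± 4.0 of the level of the 8 ephrins in Stem and 92.5% ± 0.9 in AbsPro. The gap in Stem was filled mainly by Efna4, an A ephrin outside the set.

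**Figure D4:**
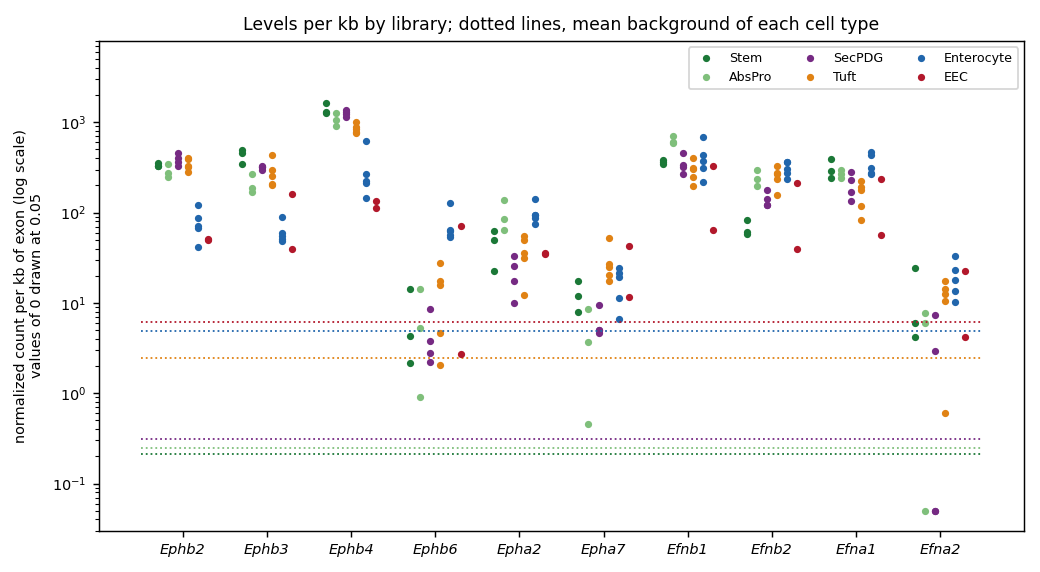
Levels of the 10 genes (x axis) in normalized counts per kb of exon (y axis, log scale), 1 point a library coloured by cell type, with the mean background of each cell type as a dotted line. Values of 0 are drawn at 0.05. Ephb2, Ephb3, Ephb4, Efnb1, Efnb2 and Efna1 lie well above the lines, while Ephb6, Epha7 and Efna2 come close to them in single libraries, such as Ephb6 in EEC replicate 2.

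Of the 12 other Eph receptors and ephrins, 8 had a mean of at least 50 normalized counts. Efna4 was called lower than Stem (456 ± 65.6, SD, n = 3) in AbsPro at 102 ± 21.0 (-2.16 ± 0.44, adjusted p = 0.0024), in tuft cells (-1.75), in enterocytes at 55.7 ± 6.35 (-3.03, adjusted p = 4.12e-07) and in EEC (-3.19). Epha4, a receptor that binds both kinds of ephrin, was called lower than Stem in SecPDG at 227 ± 116 against 774 ± 81.4 (-1.78 ± 0.36, adjusted p = 0.000279), in enterocytes (-1.11) and in EEC (-2.23). Epha5, Epha10 and Ephb1 were called higher in tuft cells, enterocytes and EEC than in Stem, by 3.70 to 7.32 (log2). Epha10 had only 4 reads in the Stem libraries together, so that its fold is not well set. The levels of the 3 genes in the other cell types were 54.8 to 193 normalized counts, and background made up 22.9% to 85.9% of them, a part in the result that was not tested. Beyond the comparisons with Stem, not every call is listed. Efna3 was called higher in enterocytes (151 ± 66.0) than in SecPDG by 3.35 and than in tuft cells by 2.85. In EEC it was called higher than in SecPDG by 2.90. Efnb3 was called higher than in AbsPro in tuft cells by 4.14, in enterocytes by 4.72 and in EEC by 4.91. Against SecPDG it was called higher in enterocytes by 3.155 and in EEC by 3.35. Background made up 11.9%, 16.6% and 19.4% of the Efnb3 level in tuft cells, enterocytes and EEC. Epha1 was called lower in EEC than in AbsPro (-1.66). No gene of the 12 was called between EEC and enterocytes.

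The signalling partners, 40 genes that act with Eph receptors, among them adaptors, exchange factors, kinases and proteases, all had a mean of at least 50 normalized counts. Against Stem 0 were called higher and 1 lower in AbsPro, where 0.844% and 0.157% of all genes with that mean were, and 2 higher and 2 lower in SecPDG (5.78% and 2.71% of genes). Tuft cells had 4 higher and 5 lower (13.7% and 7.21% of genes), enterocytes 3 higher and 8 lower (19.2% and 19.5%), and EEC 6 higher and 5 lower (19.2% and 15.5%). Their median change was 0.06 in AbsPro and -0.34 in enterocytes, beside 0.04 and -0.28 over all genes. Tiam1, an exchange factor for Rac that EphA2 and B ephrins can recruit, was the 1 gene called in AbsPro, at 494 normalized counts against 1464 in Stem (-1.58 ± 0.34, adjusted p = 0.00536), and it was also lower in enterocytes (-1.77). Ngef, the Eph receptor exchange factor ephexin 1, was lower than Stem in SecPDG (470 against 1732, -1.87 ± 0.30, adjusted p = 4.91e-06), in tuft cells (-1.90) and in EEC (-2.69). Vav3, an exchange factor of the same kind, was lower in EEC (-2.26), enterocytes (-2.75), tuft cells (-1.67) and SecPDG (-1.66). Chn2, the Rac-inactivating beta-chimaerin, was higher than Stem (208) in SecPDG (1026, 2.29 ± 0.38, adjusted p = 1.10e-05) and in tuft cells (2200, 3.40 ± 0.38, adjusted p = 2.87e-10). It stood at 327 in AbsPro, 242 in enterocytes and 982 in EEC. The kinase Fyn rose from 111 in Stem to 344 in SecPDG, by 1.69 (adjusted p = 0.00723). Fyn stood at 59.1 in AbsPro, 402 in tuft cells, 174 in enterocytes and 578 in EEC. Only the 2 largest called rises and falls of each cell type against Stem are named here, so other calls of these genes are left out. Chn1 and Arhgef15 were called higher in enterocytes and EEC, and Chn1 in tuft cells, from levels of 1.22 and 10.2 in Stem to 71.5 to 238, of which background made up 16.7% to 43.2%.

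Known Wnt targets of the crypt base, 12 genes that share members with the stem cell markers and one of which, Cd44, was used in the sort, were looked at beside the EphB receptors. Of the 12, 11 had a mean of at least 50, and those called lower than Stem were 2 in AbsPro (0.157% of genes were called lower) and 6 in SecPDG (2.71%). Tuft cells had 7 such calls (7.21% of genes) and enterocytes and EEC 10 each (19.5% and 15.5%). Nkd1, a feedback inhibitor of the pathway, was called higher in tuft cells (602 against 61.7 in Stem, 3.28 ± 0.42, adjusted p = 1.85e-08) and in EEC (2.15). The median change of the list was -1.27 in AbsPro, -1.11 in SecPDG and -3.25 in enterocytes, where that of the 4 EphB receptors was -0.30, -0.30 and -2.18. For each cell type the 2 largest called falls are named, so other calls of the same genes are left out. Lgr5, the stem cell receptor for R-spondins, was lower in AbsPro (643 against 2746, -2.10 ± 0.34, adjusted p = 9.02e-05), in SecPDG (-2.30) and in enterocytes (-3.91), and stood at 1182 in tuft cells and 269 in EEC. Cd44 was lower in AbsPro (-2.03), in enterocytes (-4.86) and in EEC (-4.47), as the sort fixes, and stood at 4524 in SecPDG and 4549 in tuft cells against 10497 in Stem. The factor Ascl2 was lower in SecPDG (-2.17) and in EEC (-5.27). Myc and Tcf7 were lower in tuft cells (-1.88 and -1.54), with Myc at 833 there, 228 in EEC and 3093 in Stem. Ephb2 is itself counted among Wnt targets, and in SecPDG, where Lgr5 stood at 556, Ephb2 stood at 4851 ± 694 (n = 4) beside 4242 ± 206 (n = 3) in Stem. Lgr5 was named in SecPDG for the size of its fall and does not stand for the list, of which 6 of 11 genes were called lower there. Whether Ephb2 differed from the list in SecPDG was not tested.

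Among the 10 pairs of cell types without Stem, 32 of 100 gene comparisons were called, 12 higher and 20 lower in the cell type named first in each pair. Enterocytes had 5 calls against AbsPro (28.4% of genes were called), 6 against SecPDG (40.6%) and 6 against tuft cells (14.4%). EEC had 4 calls against AbsPro (32.0% of genes), 4 against SecPDG (36.9%) and 3 against tuft cells (16.0%). Tuft cells had 2 calls against AbsPro (14.0% of genes) and 1 against SecPDG, and SecPDG had 1 against AbsPro. No call fell between EEC and enterocytes, where 8.02% of genes were called and where the unadjusted p was under 0.05 for 5 of the 10 genes (DESeq2 called 4, Ephb4, Efnb1, Efnb2 and Efna1, all lower in EEC). Ephb2 was lower in EEC than in AbsPro (-2.53), SecPDG (-2.93) and tuft cells (-2.78), and Ephb4 likewise (-3.11, -3.33 and -2.79), and these 6 calls held in all 35 changes of the settings. Ephb3 was lower in EEC than in SecPDG (-1.61 ± 0.42, adjusted p = 0.00136) and than in tuft cells (-1.43 ± 0.41, adjusted p = 0.00797). The call against SecPDG was lost under 2 of the 35 changes of the settings and that against tuft cells under 10. Leaving out EEC replicate 1, which leaves 1 EEC library, was among them for both. Between tuft cells and SecPDG, which share the secretory lineage, Epha7 was the gene of the set called (5.82% of genes were called), and between SecPDG and AbsPro it was Epha2 (6.34% of genes).

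The genes most like each member were found by Pearson's r of log2 normalized counts over the 22 libraries, which share cell types and depth, among the 13381 genes with a mean of at least 50. Ephb4 was the second most like gene of Ephb2 (r = 0.966), after Cldn15 (r = 0.975), a claudin that forms cation pores in the gut, and before Bckdk (r = 0.966), a kinase of branched-chain amino acid breakdown. Ephb4 was most like Lrig1 (r = 0.980), a marker of intestinal stem cells and brake on ErbB receptors, then Nfix (r = 0.978) and Rcc2 (r = 0.976). Ephb3 was most like Fbxl14 (r = 0.971), Slc1a4 (r = 0.970) and Zfp703 (r = 0.966), and its r with Ephb2 was 0.893. Efnb2 was most like Pfkp (r = 0.904), a phosphofructokinase, Optn (r = 0.884) and the creatine transporter Slc6a8 (r = 0.876). Its r with Efnb1 was 0.502 and with Ephb2 -0.153. Efnb1 was most like Fam83h (r = 0.941), Ist1 (r = 0.941) and Tep1 (r = 0.939). Efna1 was most like Ctss (r = 0.923), the protease cathepsin S, Trim16 (r = 0.869) and AA467197 (r = 0.864). Epha2 was most like Cyp4f14 (r = 0.865), Fchsd1 (r = 0.824) and Slc24a3 (r = 0.823), and Epha7 like Adora1 (r = 0.883), Ptprt (r = 0.809) and Gpm6a (r = 0.794). Ephb6 was most like 5430427M07Rik (r = 0.897), Slc7a9 (r = 0.877) and Tifab (r = 0.874), and Efna2 like Gpr4 (r = 0.924), Alox12 (r = 0.891) and 1700094D03Rik (r = 0.889). The 3 genes nearest to Ephb6 and the 3 nearest to Efna2 also had low levels, all under 100 normalized counts in Stem.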

How the data were processed

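The 22 libraries were grouped by their deposited labels. Per the labels and methods, the authors made Takara low-input Pico libraries from sorted cells, aligned 100-base pairs with STAR 2.5.2a to mm10 and counted reads per gene with HTSeq 0.6.1p1 without regard to strand, and they deposited raw counts, with no normalization. The deposited splicing and polyadenylation tables hold the authors' own comparisons and were not used here. The 5 summary rows of a file (reads outside genes, ambiguous reads and the like) were left out of library sizes and tests.

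Counts were tested with edgeR 4.0.16 (R 4.3.3) by its quasi-likelihood F test (glmQLFit, legacy=FALSE) after filterByExpr and TMM normalization, in 1 fit of 22 libraries with cell type as the only term, and p-values were Benjamini-Hochberg adjusted over 22781 genes. A call needs an adjusted p under 0.01, as in the study, and a mean of 50 normalized counts. Normalized counts are scaled to the mean library of 14451808 counts, and SE is the log2 fold change over the root of F. Levels between genes are per kb of the exon union of GENCODE vM21 (GRCm38, the mm10 assembly), which also gave coordinates. Promoters are RefSeq's on GRCm38.p6. Intervals between libraries cover mice and sorts, and depth was lowest in enterocytes and EEC. The fit was tested on simulated data. Alternatives were DESeq2 1.42.0, 3 other scalings, no filters, thinned counts, background taken off, 2 cell types alone, a replicate block and each library left out. Leaving out the 4 libraries of highest background and the earlier quasi-likelihood method were chosen after seeing the data.

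Named genes are all 10 members, the other family members called, the 2 largest called rises and falls of each partner list in each comparison with Stem, and the 3 genes most like each member. The members and lists were chosen with earlier results of these data known.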

Additional observations from a re-analysis of the deposited data

Results flagged for a closer look

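Each of the 10 genes was looked at in SecPDG, tuft cells and enterocytes, 30 groups of values in all. A library was flagged if its gap to the next, over the whole range of its group, passed Dixon's critical value. In independent groups of normally distributed values, chance does this in about 1 in 20. There were 6 flags, each for the highest library. The values were not log transformed and the genes share libraries, so the 6 cannot be read against that rate. In enterocytes, replicate 4 was highest for Ephb3 (589 normalized counts, the others at 321 to 390), for Ephb4 (2861, the others at 678 to 1250) and for Ephb6 (478, the others at 204 to 240), and replicate 1 was highest for Epha2 (664, the others at 347 to 438). Replicate 4 had the lowest background of the 5 enterocyte libraries and 581 summed endothelial marker counts, the fewest of the 5. Its summed stem cell markers, at 1679 normalized counts, were the highest of the 5, the others at 987 to 1523. The part of these differences in the receptor levels was not tested. Epha7 was highest in SecPDG replicate 4 (94.2, the others at 45.4 to 49.9) and in tuft replicate 1 (521, the others at 171 to 264).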

How the results depend on the processing

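Of the 43 calls on single genes, 25 held under all 35 single changes of the settings and none changed direction. Of the 39 gene comparisons with Stem that were not called, 10 were called under some setting and 14 had another sign under some setting. The 6 calls in enterocytes stayed within 1.5 times under every setting, as did the 9 across the 6 cell types. In AbsPro the 1 call became 3 with the 2 cell types alone, 2 without the 4 libraries of highest background, 0 with thinned counts and 0 under the earlier quasi-likelihood method. Leaving out single libraries gave 0 to 1 there, with 0 without Stem replicate 1 or Stem replicate 3. The 0 calls in SecPDG became 1 with DESeq2, RLE size factors, the 2 cell types alone or the 4 libraries left out, and 0 to 1 with single libraries left out (1 without EEC replicate 1). The 1 call in tuft cells became 3 at an adjusted p under 0.05, 2 with the 2 cell types alone and 3 without the 4 libraries, and 1 to 2 with single libraries left out (2 without EEC replicate 1). The 3 calls in EEC became 5 with DESeq2 and 3 to 6 with single libraries left out, 6 without EEC replicate 2. The 32 calls among pairs without Stem became 20 under the earlier quasi-likelihood method. The cause was not tested. Whether replicate numbers pair the libraries is not known. The deviations of same-numbered libraries had a median r of 0.00016 (-0.40 to 0.50), and those of other pairs one of 0.0042 (-0.55 to 0.63). Closest to one of their own number were 5 of 22 libraries. These values do not settle whether some of the libraries are paired. The fit with the replicate block called the same number of the 10 genes in each comparison with Stem (1, 0, 1, 6 and 3). Among the other pairs it called 35. The count of all genes called went from 134 to 209 in AbsPro against Stem and from 2803 to 3964 in tuft cells against Stem. In tuft cells against SecPDG it went from 779 to 1465, and in EEC against tuft cells from 2136 to 1637. Ephb6, Epha7 and Efna2 had few reads in EEC, 139 and 8, 223 and 90, and 25 and 7 in the 2 libraries.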
